A study of Mus musculus with 28 samples.

Results

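The regions described here are stretches of the mouse genome, outside the promoter and exon classes of the authors' annotation, that carried H3K27ac from spermatogonia through to round spermatids. There were 1380 such regions among 129187 merged regions. H3K27ac, the acetylation of a lysine in the tail of histone H3, marks active promoters and enhancers, the DNA elements that raise transcription of a gene from a distance. It was profiled by ChIPmentation, chromatin immunoprecipitation in which a transposase inserts the sequencing adapters. The members were chosen by peak calls: overlapping peaks (at least 1 bp) of the 12 H3K27ac libraries were merged, and a region was kept if it was called in at least 6 of 8 spermatogonial libraries and in all 4 adult libraries, if each of its peaks had the class intron, upstream or intergenic, and if it overlapped no input peak. The presence of the mark in every stage is therefore how the members were selected on the data and is no result, and no test is given for it. Input peaks removed 132 regions that met the other conditions.

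The cells came from testes of C57BL/6 mice. Thy1+ spermatogonia, a fraction that holds stem and progenitor cells, and c-Kit+ spermatogonia, the differentiating fraction, were from postnatal day 7, in wild type (WT) and in a knockout of Scml2 (KO), the gene of a germline Polycomb protein. Pachytene spermatocytes (PS), which are in meiotic prophase, and round spermatids (RS), the haploid cells after meiosis, were from adult KO mice only; H3K27ac of WT PS and RS was not analysed here. So the step from spermatogonia to adult cells also differs in age, and it can be followed within KO only. Each of the 6 groups had 2 libraries, and 16 input libraries in 8 groups gave the input peaks. The labels do not say whether the 2 libraries of a group came from separate animals or whether animals were pooled, so the p-values below measure the spread between libraries, which may be technical. Nor do they say which allele the KO carries.

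During spermatogenesis, stem and progenitor spermatogonia become differentiating spermatogonia, enter meiosis, and the resulting spermatids are reshaped into sperm. Meiotic entry is known for a broad change of the active enhancer set. Enhancers usually carry low CpG content and lie far from gene starts, whereas many promoters are CpG islands.

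Libraries differed in how many peaks they held, from 17877 to 73316, and replicate 1 held more than replicate 2 in each group. Of the members, between 3 (Thy1+ KO replicate 1) and 258 (Thy1+ WT replicate 2) were not called in a given spermatogonial library. Read depth is unknown. The peak tables gave a height and a fold enrichment at each summit, the height plus 1 over a background height plus 1, with 1 background for a whole library (0.564 to 1.62). The values below are fold enrichments, and because heights are whole numbers, low values move in visible steps. Of the members, 784 were called in all 8 spermatogonial libraries, 300 in 7 and 296 in 6. Members just inside the threshold, called in 6, had a median fold enrichment of 5.38 in the spermatogonial libraries that called them and 6.97 in the adult ones. The 306 regions just outside it, called in 5, had medians of 5.06 and 6.42. Members called in all 8 had 7.22 and 11.4.

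By the class of the strongest peak, 506 members (36.7%) were intronic, 379 (27.5%) upstream of a gene and 495 (35.9%) intergenic. The members were 222 to 18015 bp wide with a median of 2125 bp, and 23 lay on chromosome X and 1 on Y. All coordinates are those of the files, in mm10 per the submitters' processing notes. The distal label was checked against RefSeq starts (GRCm38.p6, the same assembly as mm10), and it did not hold for all members. Of the 1333 members on chromosomes with RefSeq start windows in the table used, 277 (20.8%) contained a RefSeq transcription start: 136 of protein-coding genes only, 127 of long non-coding RNAs only and 14 of both. Such a start lay in 130 intergenic members (27.4%), 87 upstream members (23.8%) and 60 intronic members (12.2%). The other 1056 members contained none, and in 689 of these (65.3%) the nearest start in the table was over 10000 bp from the strongest summit. The table is not complete, so these distances are upper limits.

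The starts that the authors' annotation listed often lay inside the RefSeq gene. For 17221 listed protein-coding transcripts matched to RefSeq, the listed start was over 1000 bp inside the gene's 5′ end in 18.1%, beside 2.24% of 1698 listed non-coding transcripts. For comparison, 2040 distal regions were called in all 4 adult libraries and 1 to 5 spermatogonial ones, 4323 in the adult libraries alone, and 4862 promoter-class regions had the members' calls. On the chromosomes of the window table, a start was present in 7.57% of the first, 10.8% of the second and 84.6% of the promoter-class regions. The members were wider, with a median of 2125 bp beside 1448, 1403 and 1942 bp. Among regions of 1500 to 2500 bp only, a bound set after the values were seen, a start was in 22.2% of the members, in 49 of 653 and 13.2% of the other distal sets and in 84.8% of the promoter-class regions. Among members called in all 12 libraries, the share climbed with the mean level, from 17.1% in the lowest of 5 equal bins to 41.4% in the highest. These sets were formed by their calls, so the shares are given as a description.

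**Figure D1:**
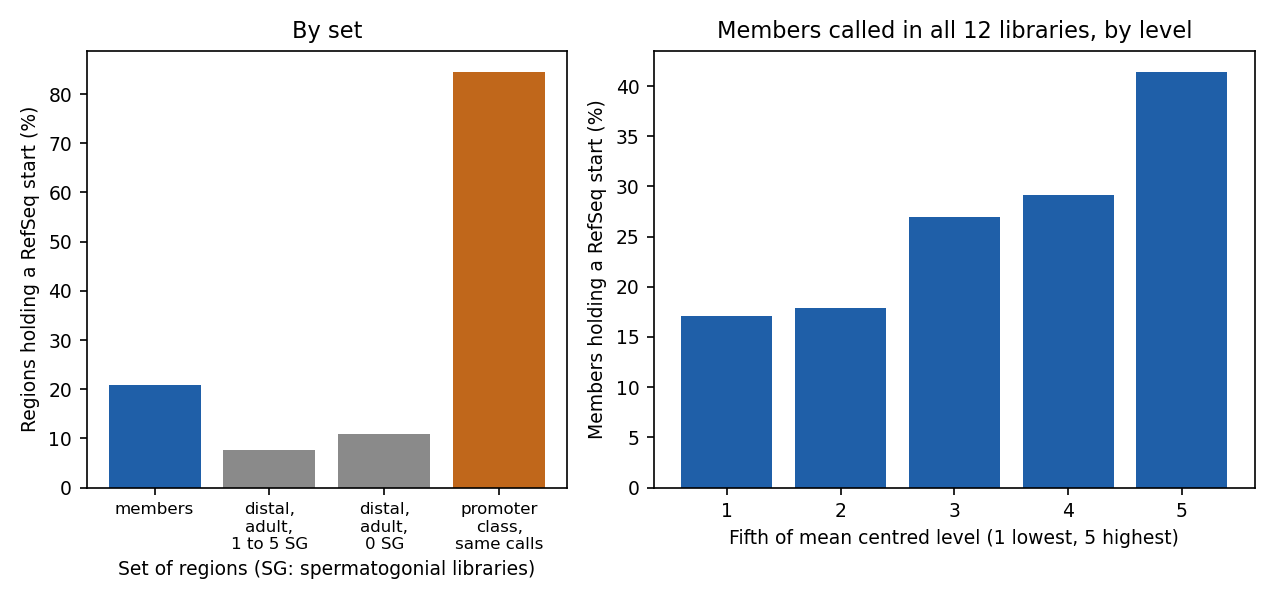
Percentage of regions that contain a RefSeq transcription start. Left, the members, 2 sets of distal adult regions and promoter-class regions with the same calls (bars, 20.8%, 7.57%, 10.8% and 84.6%); right, the members called in all 12 libraries in 5 bins of their mean level, where the bars go from 17.1% to 41.4%.

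The sequence before these starts is shown for the 6 strongest members that held one, since their level puts them at the top of a distal set while their sequence lies at a gene start. For 3 more, the Meig1, Klf6 and Epcam regions, it is shown because changes between stages described further on concern them. The 6 and the 3 were picked after their values were seen. Each run is the 250 bases before the RefSeq start, 5′ to 3′ on the gene's strand, from RefSeq GRCm38.p6. Capitals mark matches on either strand to CCGGAAG (an ETS family motif), TGACGTNA (cyclic AMP response element), CCAAT (bound by NF-Y) and GGGCGG (the GC box, bound by Sp1 family factors).

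Gm10910 (chr9:31280679-31280928, + strand): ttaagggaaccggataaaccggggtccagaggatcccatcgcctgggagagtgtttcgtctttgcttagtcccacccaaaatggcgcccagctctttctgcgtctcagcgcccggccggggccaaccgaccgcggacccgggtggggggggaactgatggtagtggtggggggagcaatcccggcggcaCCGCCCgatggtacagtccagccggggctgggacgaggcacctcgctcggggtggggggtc
D730003I15Rik (chr1:191224204-191224453, + strand): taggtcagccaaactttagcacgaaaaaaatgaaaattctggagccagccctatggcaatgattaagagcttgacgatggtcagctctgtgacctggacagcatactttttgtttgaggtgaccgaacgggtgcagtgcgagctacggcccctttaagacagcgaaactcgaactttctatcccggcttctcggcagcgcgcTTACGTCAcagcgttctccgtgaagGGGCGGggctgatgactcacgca
Kansl1 (chr11:104469444-104469693, - strand): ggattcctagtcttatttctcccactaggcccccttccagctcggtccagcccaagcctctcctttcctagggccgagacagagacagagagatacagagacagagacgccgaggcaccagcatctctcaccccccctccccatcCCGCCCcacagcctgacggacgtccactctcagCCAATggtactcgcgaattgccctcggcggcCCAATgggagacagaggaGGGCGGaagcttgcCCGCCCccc
Zranb1 (chr7:132930926-132931175, + strand): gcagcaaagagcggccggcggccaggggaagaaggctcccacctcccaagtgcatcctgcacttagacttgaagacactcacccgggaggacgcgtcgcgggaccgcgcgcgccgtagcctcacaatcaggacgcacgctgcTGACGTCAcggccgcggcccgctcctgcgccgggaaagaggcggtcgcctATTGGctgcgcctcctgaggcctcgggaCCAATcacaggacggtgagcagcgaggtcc
Rlf (chr4:121215085-121215334, - strand): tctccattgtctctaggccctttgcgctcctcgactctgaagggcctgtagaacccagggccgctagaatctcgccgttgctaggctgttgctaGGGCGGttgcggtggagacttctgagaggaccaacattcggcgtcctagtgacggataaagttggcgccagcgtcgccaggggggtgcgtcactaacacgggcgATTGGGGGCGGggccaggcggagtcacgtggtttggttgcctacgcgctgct
Pik3ca (chr3:32396815-32397064, + strand): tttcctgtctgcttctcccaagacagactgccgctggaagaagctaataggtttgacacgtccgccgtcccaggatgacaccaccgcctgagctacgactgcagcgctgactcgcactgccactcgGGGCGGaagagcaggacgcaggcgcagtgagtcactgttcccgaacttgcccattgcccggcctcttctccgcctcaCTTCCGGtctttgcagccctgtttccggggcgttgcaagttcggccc
Meig1 (chr2:3418598-3418847, - strand): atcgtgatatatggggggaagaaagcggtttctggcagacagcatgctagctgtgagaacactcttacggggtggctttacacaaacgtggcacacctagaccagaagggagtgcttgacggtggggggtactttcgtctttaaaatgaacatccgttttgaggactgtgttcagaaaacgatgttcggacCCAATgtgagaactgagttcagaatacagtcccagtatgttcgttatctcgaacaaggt
Gm35413 (chr13:5803156-5803405, - strand): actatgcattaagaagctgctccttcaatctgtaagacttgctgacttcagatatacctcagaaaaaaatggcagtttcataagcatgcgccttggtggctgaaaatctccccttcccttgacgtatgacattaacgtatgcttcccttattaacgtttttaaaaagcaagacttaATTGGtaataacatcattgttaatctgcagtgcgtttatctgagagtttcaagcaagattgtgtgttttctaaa
Gm30938 (chr17:87474569-87474818, - strand): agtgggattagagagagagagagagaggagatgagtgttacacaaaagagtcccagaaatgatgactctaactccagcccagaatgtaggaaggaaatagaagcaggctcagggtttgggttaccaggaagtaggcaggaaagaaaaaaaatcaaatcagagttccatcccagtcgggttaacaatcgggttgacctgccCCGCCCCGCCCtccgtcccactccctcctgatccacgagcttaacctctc

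The first 6 runs were 52.4% to 68.4% G and C and held 13 to 28 CpG dinucleotides each. A GC box was present in 5 of the 6, and Kansl1 had 3 of them beside 2 CCAAT boxes. Zranb1 had no GC box but 2 CCAAT boxes and the full palindrome TGACGTCA. The runs of the Meig1, Klf6 and Epcam regions were poorer in CpG. CpG content was not compared between all members that changed and those that did not. Meig1 (47.6% G and C) held 11 CpG and 1 CCAAT box, Gm35413 (37.2%) held 5 and 1 CCAAT box, and Gm30938 (50.4%) held 6 and 2 GC boxes that overlap. A match is a description of the letters and does not show a bound site.

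Over the 277 members with a start, 1 window each of 250 bases before to 50 after the start, the median G and C content was 57.7% and 52.0% of windows had a CpG observed over expected ratio of at least 0.6, the usual mark of a CpG island. The share was 70.1% for starts of protein-coding genes and 32.3% for those of long non-coding RNAs. It was 82.4% at the promoter-class regions with the same calls, 8.15% at the distal adult regions called in no spermatogonial library and 35.8% of all 32851 RefSeq windows. GGGCGG was found in 52.0% of the members' windows and in 35.7% of all, CCAAT in 41.2% and 37.4%, TGACGTNA in 5.05% and 2.93%, and CCGGAAG in 10.1% and 8.86%. CCGGAAG was in 22.4% of the promoter-class windows. GGGCGG was in 68.8% of the members' protein-coding windows and 33.8% of their long non-coding RNA windows, beside 68.6% at promoter-class regions. Over both kinds of start together, the members' CpG and GC box shares thus lay between those of all RefSeq windows and of promoter-class regions. Long non-coding RNA starts taken alone were below all RefSeq windows in both shares.

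In the libraries themselves, the members sat below the promoter-class regions. Their median fold enrichment was 6.29 and 6.03 in Thy1+ WT (replicates 1 and 2), 6.27 and 5.58 in c-Kit+ WT, 9.62 and 6.40 in Thy1+ KO and 7.09 and 5.83 in c-Kit+ KO. It was 10.3 and 10.7 in PS KO and 8.61 and 7.03 in RS KO. Thus PS KO was the highest group and Thy1+ KO replicate 1 stood above the other spermatogonial libraries. The promoter-class regions had 9.43 in Thy1+ WT replicate 1 and 17.2 in PS KO replicate 1, for example, and in each library their median was higher than the members'. Ranked among all peaks of a library, the median member was at percentile 44.7 to 74.6 in spermatogonia and 75.2 to 83.4 in the adult cells. Adult libraries held far more peaks, so this rank moves with the number of peaks called. Members with a RefSeq start were higher than those without one, at 13.3 against 9.91 in PS KO replicate 1 and 7.07 against 6.29 in Thy1+ WT replicate 1.

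**Figure D2:**
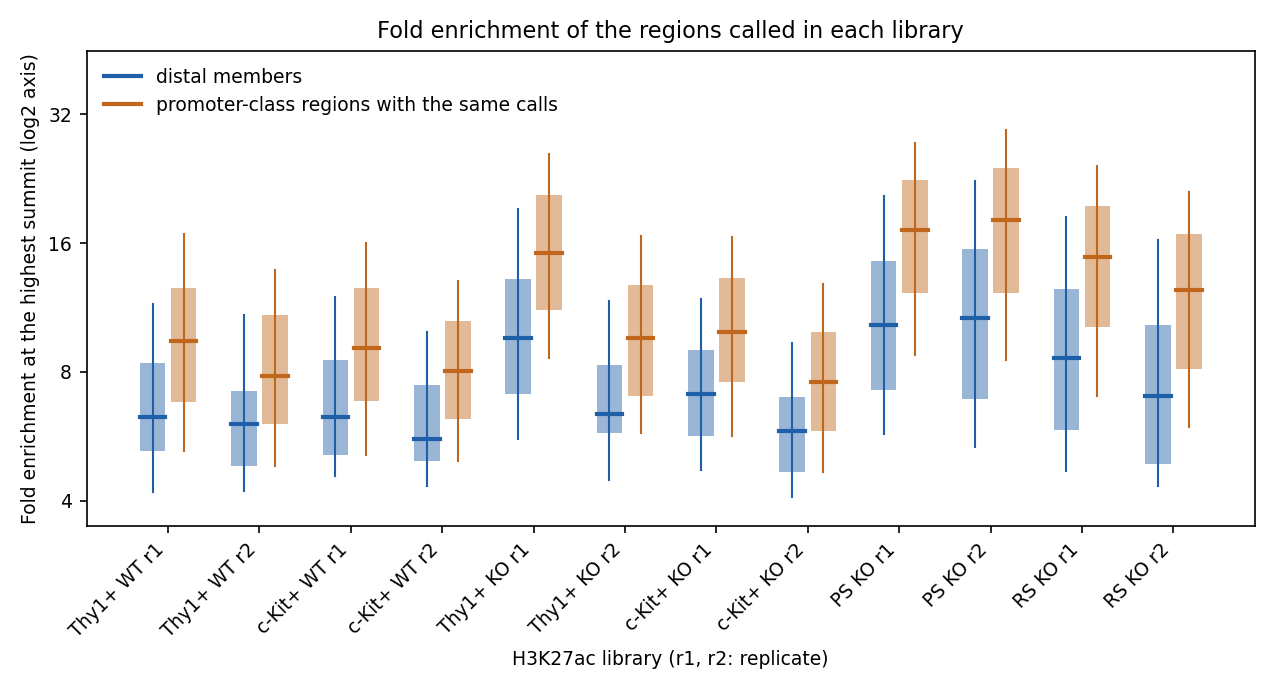
Fold enrichment (log2 axis) in each of the 12 libraries for the members and for promoter-class regions with the same calls. Thick lines are medians, boxes the quartiles and thin lines the range from percentile 10 to 90 of the regions called in that library; the members' medians are 5.58 to 9.62 in spermatogonia and 7.03 to 10.7 in the adult cells, below the promoter-class medians in every library.

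The strongest member lay upstream of Pxn and Sirt4 (chr5:115488042-115494207); paxillin is a focal adhesion scaffold and Sirt4 a mitochondrial sirtuin. Its fold enrichment was 20.4 and 19.3 in Thy1+ WT, 29.1 and 22.3 in c-Kit+ WT, 30.9 and 24.3 in Thy1+ KO, 26.96 and 23.9 in c-Kit+ KO, 37.8 and 37.3 in PS KO and 38.3 and 29.2 in RS KO. Every library called it, and both PS KO values were above all 8 spermatogonial ones before centring. With each library centred, PS KO was lower than c-Kit+ KO by sign (-0.54). The next were beside Tbcc, a tubulin cofactor (chr17:46853864-46859698), upstream of the let-7 microRNA cluster Mirlet7a-1, Mirlet7d and Mirlet7f-1 (chr13:48544240-48549252), beside Shcbp1 (chr8:4675629-4679779) and at Prdm10 (chr9:31278123-31283828). The let-7 microRNAs are known for opposing the proliferative, undifferentiated state. At the Mirlet7a-1 region the spermatogonial values were 14.9 to 40.5 and the adult ones 35.7 to 41.2, so the groups overlapped through Thy1+ KO replicate 1, the library with 40.5. The Prdm10 region was the only one of these 5 that held a RefSeq start, that of Gm10910 and of Prdm10, a zinc finger regulator.

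Some members lay close to each other. Of the 1380, 252 (18.3%) lay within 12.5 kb of another, in 113 groups, and 1184 listed genes were named beside them. The largest group had 6 members over chr15:85633730-85679204, beside the let-7 microRNA gene Mirlet7c-2, which had 7 members in all. Ptma (prothymosin alpha, a small nuclear protein of dividing cells), Tex14 and Tns1 (tensin, an adhesion protein) had 6 each, and Irf2bpl, Pitpnm2, Ptpn1, Ski and Zfp36l1 had 5. Tex14 makes the intercellular bridges that join germ cells. Its 6 members spread over 49.6 kb of the gene (chr11:87421610-87471184), 5 of them were called in all 8 spermatogonial libraries, and their mean fold enrichment was 6.16 to 13.4 in spermatogonia, 10.8 to 14.8 in PS KO and 7.35 to 12.2 in RS KO. None of the 6 passed a test between stages. The members of 1 gene did not always move together. At Mirlet7c-2, 1 of 7 was lower in RS than in PS, and at Tns1, over 150.9 kb, 1 of 6 was higher in RS and 1 lower.

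The widest members were in Sh3bp5 (18015 bp, chr14:31391584-31409598), beside Zfp572 (11820 bp, chr15:59272475-59284294) and upstream of Irf2bpl (11327 bp, chr12:86887326-86898652). The Zfp572 region was called at 3.42 to 6.29 in 6 spermatogonial libraries and at 25.2 and 30.4 in PS KO and 18.4 and 23.3 in RS KO. The adult values were all above the spermatogonial ones there. A microRNA hairpin of RefSeq lay inside 4 members: Mir7671 beside Irf1, Mir8120 beside Lekr1, Mir7228 near Clip2 and Mir8109 near Neto2.

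Levels from spermatogonia to the adult cells are a description, because the rule used the calls of both. Without centring, the median change of the 784 members called everywhere was 0.35 log2 units upwards from the 4 spermatogonial KO libraries to the 4 adult KO libraries, beside 0.57 over all 9239 regions called in all 12 libraries. With each library centred on its median over those regions, the members' median change was -0.33, beside -0.11 over all. As a percentile rank among a library's peaks the members rose by a median of 10.4 points, beside 8.11 over all. The sign therefore depends on the scale. On both log2 scales the members' median was below that of all regions, and by rank it was above. On the centred scale all 4 adult KO values were above all 4 spermatogonial KO values in 42 members (5.36%, beside 10.1% of all regions) and below them in 227 (29.0%, beside 21.1%). Of the 201 of these members with a RefSeq start, 15 (7.46%) were in the first group and 44 (21.9%) in the second; of the 557 without one, 26 (4.67%) and 172 (30.9%).

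Only the 1197 members called in both c-Kit+ KO libraries could be ranked by their change from c-Kit+ KO to PS KO. Among them the largest rise was at Meig1, a gene required for spermatid flagella. Its region (chr2:3417704-3421521) had fold enrichments of 5.20 and 5.25 in c-Kit+ KO, 7.09 and 5.76 in Thy1+ KO, 32.0 and 38.4 in PS KO and 24.6 and 25.4 in RS KO. In WT it was 4.72 in Thy1+ replicate 1, not called in Thy1+ replicate 2, and 4.56 and 7.44 in c-Kit+ cells. The adult values were several times all spermatogonial ones. The authors' class was intron, and a RefSeq start of Meig1 lay inside, the 250 bases before which are printed above. The next rises were upstream of Foxj2, a forkhead factor, from 6.15 and 4.66 to 29.0 and 34.7, and beside Zfml, from 4.73 and 4.08 to 21.4 and 21.9. The largest falls were beside 2610307P16Rik, from 7.57 and 7.00 to 3.81 and 3.73, upstream of D6Ertd527e, from 9.46 and 7.58 to 3.43 and 5.87, and in Cc2d2a, a cilium gene, from 12.3 and 7.00 to 6.86 and 4.27. These regions were ranked by this difference, so the low values at its lower end follow from the ranking.

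The question of whether loss of Scml2 changed H3K27ac at the members was addressed in spermatogonia, where both genotypes were analysed. No member passed. Log2 fold enrichments of regions called in every library compared were tested with limma, each library centred on its median, at a Benjamini-Hochberg adjusted p of 0.05 over all regions tested. Among Thy1+ libraries 0 of 994 members passed, beside 0.00932% of all regions, and among c-Kit+ libraries 0 of 1064, beside 0.00901%. In both with stage as a covariate 0 of 784 passed, beside 0.0% of all regions. For the genotype by stage interaction 0 of 784 passed, beside 0.0%. At an unadjusted p under 0.05 (limma) were 52 of 994 members and 473 of 10727 regions in Thy1+ cells. In c-Kit+ cells these were 44 of 1064 and 446 of 11101. For both stages they were 43 of 784 and 493 of 9502, and for the interaction 53 of 784 and 454 of 9502. Without Thy1+ KO replicate 2, 3 of 1036 members passed in Thy1+ cells (0.29%, beside 0.967% of all regions), all lower in KO. The median difference between KO and WT was -0.05 for Thy1+ cells, where percentiles 10 and 90 of the members were -0.40 and 0.26. For c-Kit+ cells it was -0.03, with -0.32 and 0.29.

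The smallest unadjusted p in Thy1+ cells was at an intronic region of M1ap, a meiosis gene (chr6:82996554-82998156). Its fold enrichment was 4.19 and 4.22 in Thy1+ WT and 13.7 and 7.68 in Thy1+ KO, a difference of 0.79 ± 0.23 log2 units (SE, centred; limma adjusted p = 0.734). In c-Kit+ cells it was upstream of Fam25c and Mmrn2 (chr14:34362784-34364438), with 7.98 and 9.30 in WT and 5.20 and 4.08 in KO (-0.93 ± 0.24, SE; limma adjusted p = 0.996). For both stages together it was beside Slc17a5 (chr9:78519506-78522128), a lysosomal sialic acid transporter, at -0.58 ± 0.16 (SE; limma adjusted p = 0.823). For the interaction it was upstream of Nfib (chr4:82512287-82513786), a nuclear factor I gene, at 1.22 ± 0.34 (SE; limma adjusted p = 0.934). None of these differences passed the threshold. With 2 libraries per group a missed threshold does not show that the genotypes are alike.

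Between the spermatogonial fractions, 18 of 784 members were higher in c-Kit+ than in Thy1+ cells and 3 were lower, with genotype as a covariate. These 21 are 2.68% of the members, and 1.08% of all 9502 regions tested passed. Higher calls made up 2.30% of the members beside 0.81% of all regions, and lower calls 0.383% beside 0.274%. The median difference was 0.07 log2 units in the members and 0.01 over all regions. The called members that were higher had differences of 0.63 to 0.98. In 15 of these 18 every c-Kit+ value was above every Thy1+ value on the centred scale, and all 3 lower members had every c-Kit+ value below. The 21 were picked by a test on these same values, so such separation follows largely from the choice. Its share over all regions tested was not computed. Intronic members made up 8 of the 18 (3.60% of 222 tested), intergenic ones 7 (2.21% of 317) and upstream ones 3 (1.22% of 245). Of the 21, 2 held a RefSeq start, those of Gm41907 beside Ptma and of Gm40094 beside Pogz. These were 0.995% of the 201 tested members with a start, and 3.41% of the 557 without one were called.

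The largest rise was beside Speer4a, a testis gene family member (chr5:26006879-26008211). Its fold enrichment was 6.81 and 8.45 in Thy1+ WT, 8.61 and 5.76 in Thy1+ KO, 12.5 and 11.2 in c-Kit+ WT and 13.2 and 11.1 in c-Kit+ KO, a difference of 0.98 ± 0.17 log2 units (SE; limma adjusted p = 0.00787). All 4 c-Kit+ values were above all 4 Thy1+ values, in both genotypes. An intronic region of Rere, a nuclear receptor coregulator (chr4:150580893-150584920), rose from 5.24 and 4.22 in Thy1+ WT and 6.08 and 7.04 in Thy1+ KO to 7.41 and 8.68 in c-Kit+ WT and 12.3 and 8.16 in c-Kit+ KO (0.96 ± 0.19, SE; limma adjusted p = 0.0114). Beside the microRNA gene Mir135a-2 (chr10:91236870-91238442) the Thy1+ values were 6.29, 6.64, 7.59 and 5.76 and the c-Kit+ values 14.8, 8.06, 12.3 and 8.16, in the order WT, WT, KO, KO. The Mir135a-2 groups did not overlap, and the difference was 0.95 ± 0.16 (SE; limma adjusted p = 0.00787). The other 2 of the 5 largest were upstream of Derl1 and Wdr67 (0.95; Derl1 works in protein quality control of the endoplasmic reticulum) and beside Osbpl11 (0.92), where Thy1+ WT replicate 2, at 7.84, reached into the c-Kit+ range of 7.58 to 9.69.

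Further members that rose lay in or near Zbtb20 and Etv6, both transcriptional repressors, Klf6, a zinc finger factor, Ptprd, a receptor phosphatase, and Syne2, which anchors the nucleus; their differences were 0.74, 0.65, 0.73, 0.81 and 0.67. These 5 and the Ptma region named above were picked from the 18 after their values were seen. The 3 members that fell were in Stk40, a kinase gene (chr4:126107560-126111918; -0.62 ± 0.15, SE, limma adjusted p = 0.0443), upstream of Shf, an adaptor protein gene (chr2:122377112-122378687; -0.62 ± 0.15, SE, limma adjusted p = 0.0375), and upstream of B4galnt4, a glycosyltransferase gene (chr7:141046539-141049239; -0.60 ± 0.15, SE, limma adjusted p = 0.0445). At Shf the fold enrichment was 11.0, 9.05, 15.2 and 8.95 in the Thy1+ libraries and 6.27, 5.58, 7.09 and 4.66 in the c-Kit+ ones, in the order WT, WT, KO, KO. The Shf fall was seen in both genotypes. These counts depended on single libraries and on the scale. Without Thy1+ WT replicate 1 the count was 1 (0.121%, beside 0.0519% of all regions). It was 6 without c-Kit+ WT replicate 2 (0.712%, beside 0.355%) and 9 without c-Kit+ KO replicate 2 (1.07%, beside 0.357%). It was 10 without c-Kit+ KO replicate 1 (1.27%, beside 0.305%) or Thy1+ KO replicate 1 (1.27%, beside 0.379%). Without c-Kit+ WT replicate 1 it was 15 (1.9%, beside 0.766%). Without Thy1+ KO replicate 2 and Thy1+ WT replicate 2 it was 34 (4.2%, beside 1.5%) and 41 (4.61%, beside 1.52%). Without centring, where the median of all regions was -0.26, 0 of 784 members and 0 of 9502 regions passed (limma). At an unadjusted p under 0.05 (limma) were 85 of these members and 925 of these regions. When a library without a call was given the lowest value of its table, 50 members were higher and 92 lower (3.62% and 6.67%, beside 1.81% and 3.38% of all regions).

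**Figure D3:**
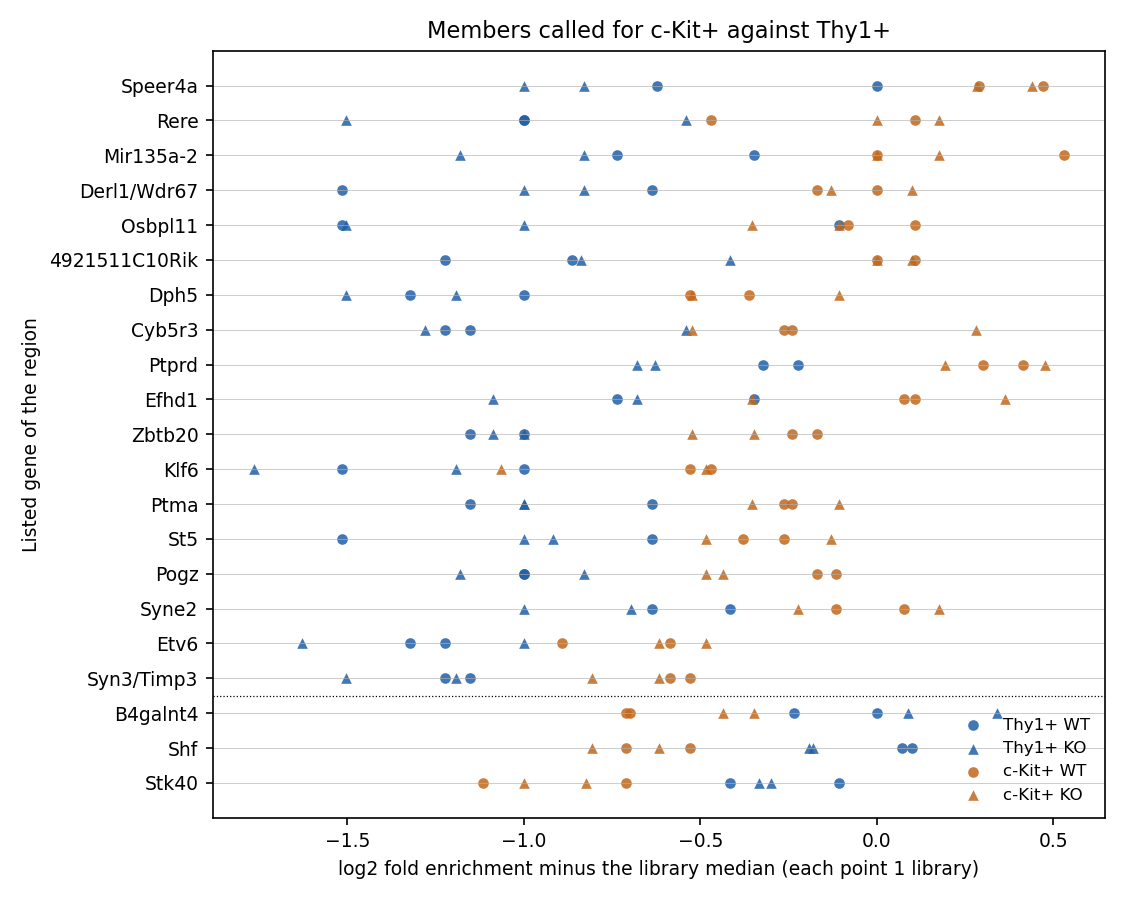
The 21 members called between c-Kit+ and Thy1+ spermatogonia, each point 1 library, as log2 fold enrichment minus the library median over the regions tested. Above the dotted line are the 18 higher in c-Kit+ cells (differences of 0.63 to 0.98), and below it are the 3 lower. In 15 of the 18 the 4 c-Kit+ points lie to the right of all 4 Thy1+ points. The regions were chosen by a test on these values.

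Between the adult stages more members differed. In KO cells 69 of 1380 members were higher in RS than in PS (5.00%, beside 13.3% of all 21302 regions tested) and 195 were lower (14.1%, beside 7.71%), 264 in all (19.1%, beside 21.0%). The share called in either direction was thus near that of all regions, while the directions were split the other way round. The median difference was -0.17 log2 units in the members and -0.07 over all regions. Without centring, where the median of all regions was -0.27, 37 members were higher and 376 lower (2.68% and 27.2%, beside 10.4% and 17.1% of all regions). Promoter-class regions with the members' calls had 0.679% higher and 4.92% lower; distal adult regions with 1 to 5 spermatogonial calls had 16.7% and 8.48%, and those with none 30.7% and 12.3%. The more often a distal region was called in spermatogonia, the smaller was the share higher in RS over these 3 sets; the sets were formed by calls, and their differences were not tested. Among the members, 7.51% of intronic, 4.24% of intergenic and 2.64% of upstream ones were higher in RS, and 76 of 506, 81 of 495 and 38 of 379 lower. With a RefSeq start the shares were 4.33% and 12.3%, and without one 57 of 1056 were higher and 154 lower.

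The largest rise in RS was in an intron of Slc24a6, a cation exchanger gene (chr5:120515406-120518513). Its fold enrichment was 6.86 and 4.27 in PS KO and 16.8 and 13.5 in RS KO, 1.69 ± 0.25 log2 units (SE; limma adjusted p = 0.0051). It was 3.78 to 9.11 in the 6 spermatogonial libraries that called it, so RS KO was above every other library. In an intron of Pip5k1c, a lipid kinase gene (chr10:81296157-81301454), it was 7.25 and 6.93 in PS KO and 18.8 and 18.4 in RS KO (1.60 ± 0.20, SE; limma adjusted p = 0.0051). There it was 7.34, 4.83, 9.11 and 7.04 in the 4 Thy1+ libraries, was called in neither c-Kit+ WT library, and was 4.26 and 4.08 in c-Kit+ KO. Intronic regions of Ubtd1 (1.58) and Arhgap18, a GTPase-activating protein gene (1.57), and a region beside Klf6 (1.44; chr13:5802302-5804811) completed the 5 largest. The Klf6 region was 3.62 to 5.12 in 6 spermatogonial libraries, 5.34 and 4.80 in PS KO and 12.5 and 11.4 in RS KO. It held the start of the long non-coding RNA Gm35413, whose upstream letters are printed above. These 5 were all called in 6 of 8 spermatogonial libraries, the least the rule allows.

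The largest fall was upstream of Txndc2, the gene of a sperm thioredoxin (chr17:65646354-65650239). Its fold enrichment was 16.0 and 15.5 in PS KO and 4.30 and 4.33 in RS KO, -1.66 ± 0.20 log2 units (SE; limma adjusted p = 0.0051). In spermatogonia it was 4.05 to 6.27 in 6 libraries, so PS KO stood above all others. Intronic regions of Ccdc33 (chr9:58035428-58038399; -1.64) and Abr, a regulator of Rac GTPases (chr11:76528184-76532751; -1.46), had another course. At Ccdc33 the values were 6.03, 7.09 and 6.40 in the 3 Thy1+ libraries that called it, 11.4, 9.30, 11.4 and 7.00 in c-Kit+ cells, 14.1 and 18.7 in PS KO and 4.69 and 4.33 in RS KO. They were lowest in RS KO, and 3 of 4 c-Kit+ values were above all Thy1+ ones. Regions beside Ccdc122 (-1.44) and in Lama1, a laminin gene (-1.43), were the next. All 10 of these regions had RS KO values that did not overlap those of PS KO. They were chosen as the largest called changes between these same libraries, so this follows largely from the choice.

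**Figure D4:**
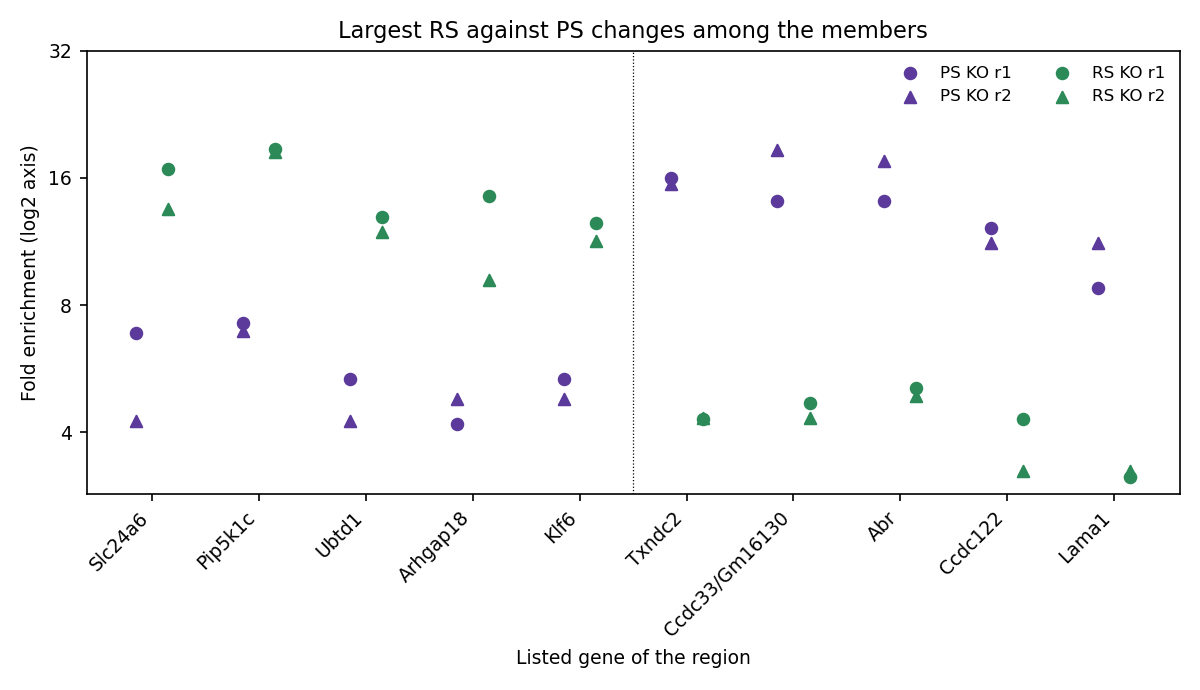
Fold enrichment (log2 axis) in the PS KO and RS KO libraries for the 5 members with the largest rise and the 5 with the largest fall, divided by the dotted line; each point is 1 library. The differences run from 1.44 to 1.69 on the left and from -1.43 to -1.66 on the right. In no region do the PS and RS points overlap, but the regions were chosen by these values.

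These calls rested on PS KO replicate 2: without it no member passed (limma, 0 of 1380; 399 at an unadjusted p under 0.05), while without PS KO replicate 1, RS KO replicate 2 or RS KO replicate 1 the counts were 145, 148 and 155 (10.5%, 10.7% and 11.2% of the members), of which 105, 124 and 122 were lower. Of all regions 0 of 26264 passed without PS KO replicate 2, and 15.7%, 12.2% and 11.8% in the other fits. In all 4 of those fits the 10 regions named kept their direction. PS and RS were compared in KO cells only, and the same comparison in WT was not analysed here.

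The 2 stage differences used separate libraries, the 8 spermatogonial ones and the 4 adult ones, and could be set beside each other. All 18 members higher in c-Kit+ than in Thy1+ cells were lower in RS than in PS by sign, 10 of them past the threshold: those at Speer4a, Rere, Mir135a-2, Ptprd, Efhd1, Zbtb20, St5, Syne2, Etv6 and Syn3/Timp3. Of all 61 regions higher in c-Kit+ cells and tested in both comparisons, 54 (88.5%) were lower in RS by sign and 30 (49.2%) past the threshold, so the pattern was not limited to the members. A negative sign was common in any case. Among those not called between PS and RS, 452 of 661 members (68.4%) and 6188 of 8689 regions (71.2%) were lower in RS by sign. Past the threshold, 475 of all 9239 regions and 102 of the 784 members were lower. None of the 18 was called higher in RS, and none of the 3 members lower in c-Kit+ cells was called between PS and RS. Among the members lower in RS, 102 of 195 were tested in spermatogonia, and 90 of these (88.2%) had a positive c-Kit+ minus Thy1+ difference, with a median of 0.25. Of the 21 tested among the 69 higher in RS, 5 (23.8%) had a positive one, with a median of -0.07. Of the 661 tested among members not called, 385 (58.2%) were positive, with a median of 0.05. Over all regions tested in both, the positive shares were 79.4% of 475 lower in RS, 36.0% of 75 higher in RS and 49.6% of 8689 not called.

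Across the 784 members called in all 12 libraries, Pearson's r between both differences was -0.35 and Spearman's rank correlation -0.35. These correlations run over regions, which share their libraries and are not independent replicates, so no p is given. Leaving out each library in turn, they were -0.38 to -0.31. Over the 557 members without a RefSeq start r was -0.36, over 4181 promoter-class regions with the same calls -0.19 and over all 9239 regions called in all 12 libraries -0.22. Whether members differ from the others in this was not tested. Members lower in RS had median fold enrichments of 5.76 and 5.43 in Thy1+ WT, 6.84 and 6.20 in c-Kit+ WT, 8.10 and 5.76 in Thy1+ KO and 7.09 and 5.83 in c-Kit+ KO. They had 11.8 and 12.8 in PS KO and 5.87 and 4.87 in RS KO, a fall that their choice fixes. Members not called had 10.3 and 10.1 in PS KO, without centring. Those higher in RS had 9.11 and 6.40 in Thy1+ KO, 5.68 and 4.66 in c-Kit+ KO, 6.48 and 5.86 in PS KO and 11.0 and 9.74 in RS KO. Members lower in RS were called in all 8 spermatogonial libraries more often (52.3%) than those higher in RS (30.4%), and 59.2% of the members not called were.

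**Figure D5:**
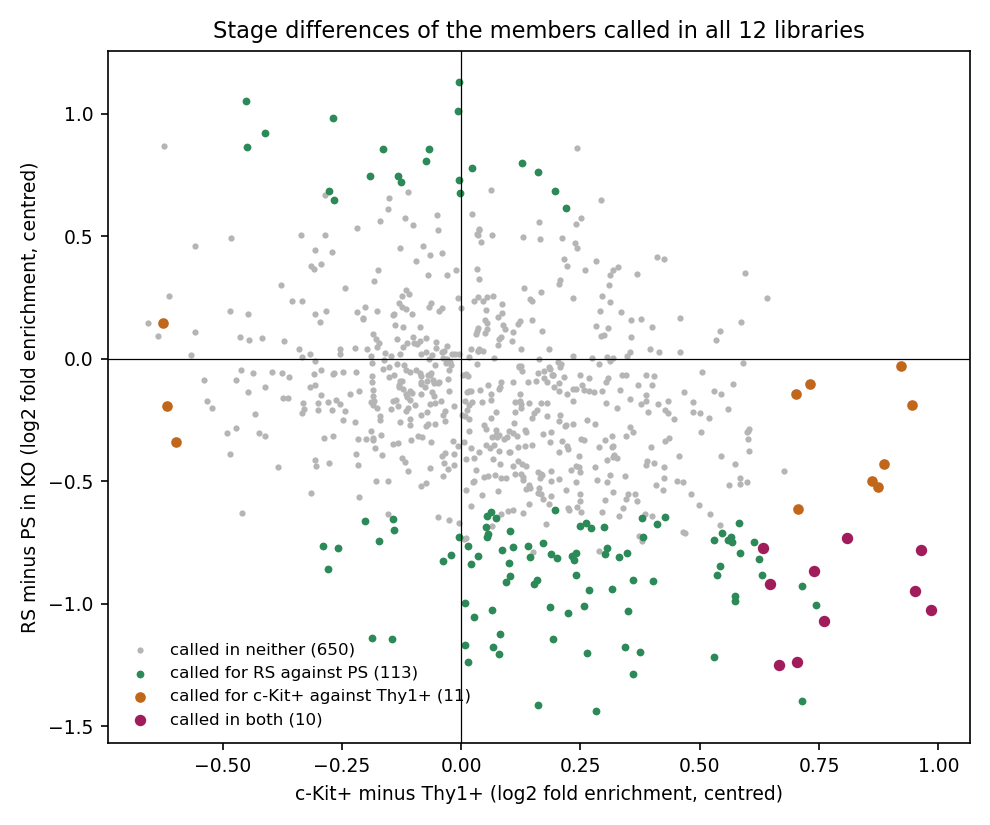
Difference between c-Kit+ and Thy1+ spermatogonia (x axis) against that between RS and PS in KO (y axis), both in log2 fold enrichment, for the 784 members called in all 12 libraries (points, coloured by the tests they passed). The 10 members called in both lie at the lower right, and the cloud slopes downwards (r = -0.35).

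Genes of germ cell and chromatin pathways were looked up among the genes listed beside members. Of 32 genes of spermatogonial stem and progenitor cells, 2 had a member, Nanos3 and Epcam. Nanos3, an RNA-binding protein of early germ cells, was listed beside 3 members together with microRNA genes, among them Mir23a, Mir27a and Mir24-2. One of these (chr8:84197047-84206417) was among the strong members, with 24.1 and 18.1 in Thy1+ WT, 17.7 and 12.4 in c-Kit+ WT, 31.4 and 14.7 in Thy1+ KO, 15.6 and 9.91 in c-Kit+ KO, 38.9 and 40.5 in PS KO and 39.1 and 33.5 in RS KO. The highest c-Kit+ value was above the lowest Thy1+ one, and the difference did not pass (-0.37 ± 0.15, SE; limma adjusted p = 0.238). The region beside Epcam, an adhesion protein of the epithelium and of undifferentiated spermatogonia (chr17:87472429-87475745), was 4.72 to 10.1 in spermatogonia, 16.0 and 18.7 in PS KO and 7.04 and 7.57 in RS KO. It fell from PS to RS (-1.04 ± 0.21, SE; limma adjusted p = 0.00949), and it held the start of Gm30938, shown above.

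Of 26 genes of spermatogonial differentiation and meiotic entry, 4 had members: the retinoid receptors Rara and Rxra, Ccnd3, a D-type cyclin, and Tet3, which oxidises methylcytosine. Retinoic acid is the signal that starts differentiation and meiotic entry. At Rara (chr11:98953378-98956225) the region was 4.34 to 7.41 in the 7 spermatogonial libraries that called it, 13.4 and 17.6 in PS KO and 7.82 and 5.41 in RS KO, and it fell from PS to RS (-1.03 ± 0.21, SE; limma adjusted p = 0.00965). Rxra and Tet3 did not pass between PS and RS, at -0.34 and 0.48 log2 units. The Rxra region held the RefSeq start of Gm13421. Of the 2 intronic Ccnd3 members, the one at chr17:47521291-47524095 rose from 4.96 and 5.33 in PS KO to 9.78 and 11.4 in RS KO (1.24 ± 0.22, SE; limma adjusted p = 0.00644), while the one at chr17:47510298-47513760 was 12.6 and 12.3 in PS KO and 9.00 and 7.03 in RS KO and did not pass (-0.44; limma adjusted p = 0.14). The 2 Ccnd3 members thus had opposite signs, and the difference between them was not tested.

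Of 40 genes of meiotic prophase 2 had members, Tex14 and Tdrd1, a Tudor protein of the piRNA pathway, and none of their 7 members passed. The Tdrd1 member was also listed for A630007B06Rik and held the RefSeq start of another gene, Ccdc186, 195 bp from its summit. Of 30 spermatid genes 2 did, Rfx2 and Odf1. Rfx2, a regulator of the spermatid programme, had an intronic member 8256 bp wide (chr17:56809025-56817280) at 4.66 to 8.61 in spermatogonia, 16.0 and 12.8 in PS KO and 24.3 and 19.5 in RS KO, which rose from PS to RS (0.81 ± 0.21, SE; limma adjusted p = 0.0214). The region of Odf1, an outer dense fibre protein of the sperm tail, was 14.5 and 19.7 in PS KO and 9.00 and 10.8 in RS KO and did not pass (-0.57; limma adjusted p = 0.127). Most genes of these lists had no member. The share of all listed genes with a member was not computed, so the counts for these lists and those below are a description only.

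Of 30 genes of histone acetylation, 5 had members, 8 in all, among them the acetyltransferase genes Ep300 and Kat2b and the deacetylase genes Hdac4 and Hdac7. None of the 8 passed between PS and RS or, of the 3 tested, between c-Kit+ and Thy1+ cells. The region near Ep300 (chr15:81521997-81524651) was 7.86, 7.24, 12.2 and 8.95 in the Thy1+ libraries and 14.8, 8.68, 11.4 and 10.5 in the c-Kit+ ones, in the order WT, WT, KO, KO (0.60 ± 0.16, SE; limma adjusted p = 0.0615). Of 35 genes of Polycomb and H3K27 methylation, the machinery to which SCML2 belongs, 2 had members: Pcgf5 with 2, both holding a RefSeq start of Pcgf5, and Cbx7 with 1. None of the 3 passed in a stage test. Of 45 general transcription regulators 12 had members, 16 in all, among them Elf2, Mga, Fos, Junb, Sox4, Sp1 and Yy1. The Sox4 region held the starts of Gm46405 and Gm52067, and the Yy1 region that of Gm33628. The Elf2 region, which held an Elf2 start, was 9.05 to 23.8 in spermatogonia and 23.3 to 38.4 in the adult cells. Of these 16, 2 were higher in RS, none lower, and 1 of 9 tested was higher in c-Kit+ cells, with different members near Klf6 in both counts.

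Markers of somatic testis cells were counted because the sorted or sedimented fractions could hold such cells. Of 31 genes 4 had a member: the endothelial genes Vwf, Cd34 and Pecam1, and Vim. The Vim region was also listed for Trdmt1 and held the RefSeq start of Gm9875. Sox9 and Amh of Sertoli cells, Star of Leydig cells, Acta2 of myoid cells and Csf1r of macrophages had none. The 4 members were called in 6 or 7 spermatogonial libraries at 3.42 to 10.6, and their mean centred levels were -1.27 to -0.98, beside medians over the members of -1.05 to -0.49 in single libraries. Cd34 was lower in RS (-0.71; limma adjusted p = 0.0413) and Vim higher (0.66; limma adjusted p = 0.045), while Vwf (0.29) and Pecam1 (0.53) did not pass. A gene listed beside a region need not be its target, and the part of other cells in these values was not tested.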

How the data were processed

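H3K27ac peaks of 12 libraries and input peaks of 16 libraries were read from the authors' deposited tables, 1 per library. Bowtie, MACS2 and mm10 are named in the submitters' processing notes; versions and settings are not given in the sources used here. Per the file headers each peak summit has a signal height, −log10 p and −log10 q values and a fold enrichment, and the deposited fold enrichment is a ratio to 1 background height per library. Read depth is unknown, so no interval from counts was made.

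Peaks with several summits kept the highest one, and mitochondrial and unplaced peaks were left out. Overlapping peaks (1 bp) were merged, and each library was given the highest fold enrichment of its peaks there, on the log2 scale. Only regions called in every library compared were tested, so regions lost in a stage could not enter. Models used limma 3.58.1 (lmFit and eBayes, R 4.3.3) on values centred on each library's median, with Benjamini-Hochberg adjustment over all regions tested. They were also run on simulated data with even noise and planted changes larger than those of the members called in the main fits. That run does not show how well smaller changes are found in these values. Regions were named by the nearest listed gene under a rule: the 5 strongest, up to 5 largest changes per direction and contrast or the smallest unadjusted p-values, genes of 8 lists, the 3 widest, and the 3 largest rises and falls. RefSeq windows (GRCm38.p6) gave starts and sequences; chromosome 18, with 47 members, was not analysed here for starts. The genome sequence at summits was not used here. The members and lists were chosen with earlier results of these data known. Alternatives were a replicate block, quantile normalization, no centring, uncalled libraries at their lowest value, stricter peaks (−log10 q of at least 5), joining within 1000 bp and leaving out each library. Descriptions used Python 3.11.15, numpy 2.4.6 and pandas 2.3.3.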

Additional observations from a re-analysis of the deposited data

How the results depend on the processing

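The number of members was 1380. It was 784 when all 8 spermatogonial libraries had to call a region, 521 with stricter peaks and 597 with the same number of strongest peaks (17877) in each library; leaving out each library gave 1086 to 1539. Members called for genotype in Thy1+ cells went from 0 to 2 with the replicate block and 0 to 3 over the fits without 1 library; in c-Kit+ cells, in both and for the interaction they were 0 to 0 in all such fits. For c-Kit+ against Thy1+ the 21 became 50 with the replicate block (6.38%, beside 2.16% of all regions) and 13 with quantile normalization (1.66%, beside 0.695%). They became 0 with no centring, beside 0.0% of all regions, and 3 with stricter peaks (1.03%, beside 0.369%). With uncalled libraries at their lowest value they became 142, 50 higher and 92 lower (10.3%, beside 5.19%). Without 1 library they were 1 to 41 (0.121% to 4.61%, beside 0.0519% to 1.52%). For RS against PS the 264 became 413 with no centring, 51 with stricter peaks and 0 to 155 without 1 library. The median adult change of -0.33 reversed to 0.353 with no centring and to 10.4 points as a percentile rank (all regions 8.11), and was -0.371 to -0.273 without 1 library. The cause of these shifts was not tested. Deviations of same-numbered libraries correlated weakly, at 0.04 to 0.17 over regions, and always positively. With the block, calls over all regions went from 103 to 205 for c-Kit+ against Thy1+ and from 4473 to 5081 for RS against PS. For genotype in Thy1+ cells they went from 1 to 71. Whether the replicate number marks a shared batch cannot be told from the labels, and the block is given only here. Of single regions named for a stage contrast, none changed sign; 43 of 104 values for c-Kit+ against Thy1+ and 10 of 87 for RS against PS lost their call. Depth is unknown, so weak regions near the calling limit may be missed in libraries with few peaks. The correlation settings and the width limit for RefSeq starts were chosen after seeing the data.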
